A study of Mus musculus with 20 samples.

Results

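The C-type lectin receptor genes were described across a syngeneic mouse model of colorectal cancer liver metastasis (CRLM) and in macrophages taken from its tumors. The members were the protein-coding genes named Clec and a digit, without Clec4f and Clec4g, and they numbered 28 of the 54532 genes in each count table. Of the 33 genes with such a name, Clec4f and Clec4g were left out by that rule, and 3 more were left out because the annotation gives them a pseudogene biotype. One of these is Clec7a, the gene of the beta-glucan receptor Dectin-1, which is listed as a polymorphic pseudogene.

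All mice were wild-type C57BL/6 animals with an intact immune system, and tumors came from 1 established line, the mouse colon carcinoma MC38. The control livers (con, 2 samples) were taken on day 0 after normal saline. Tumor-bearing livers received 1000000 MC38 cells and were sampled at low tumor content on day 9 (Lt, 2), at medium content on day 9 (Mt3, 2) and day 11 (Mt2, 2, and Mt1, 2), and at high content on day 12 (Ht, 3 libraries), with 1 library of tumor-free liver far from the tumor on day 12 (L-con), which was described and not tested. From Mt2 tumors, F4/80+ cells (F4/80+TAM, 3) and CD11b+ cells (CD11b+TAM, 3) were taken on day 11 with magnetic beads. Lt and Mt3 shared day 9, and medium content was sampled on both day 9 and day 11, but in each tissue comparison made here the groups differed in both tumor content and day, which cannot be told apart there.

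C-type lectin receptors bind sugars, lipids or proteins through a lectin-like fold outside the cell. Many myeloid members either pass an activating signal to the kinase SYK, directly or through the adaptors FcRγ and DAP12, or carry an inhibitory motif that recruits phosphatases. Other members mark platelets, endothelium or natural killer (NK) cell ligands, so a liver expresses several of them in different cell types.

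The tissue libraries held 16032085 to 18246623 counts and the sorted-cell libraries 17785496 to 20548370, so that 3 counts, taken as the floor of detection, stood at 0.146 to 0.187 CPM (counts scaled to library size) before scaling. The methods call Ht 1 and Ht 3 identical, and both were summed to 1 sample (Ht 1+3), which leaves 2 Ht samples. The scaling factors ran from 0.69 in con to 1.60 in Ht, and scaling by total counts instead moved the median log2 fold change of all genes from con to Ht from 0.09 to 1.28, so the changes below are relative to the other genes of the liver. Of the genes that define monocytes and macrophages, all 13 were above the floor in both sorted populations, and all 13 were called higher than in Mt2 tissue. Neutrophil genes were also present, with a summed level of 194 to 700.1 CPM in F4/80+TAM and 1451 to 5242 in CD11b+TAM, and CD11b+TAM 3 stood apart with the highest of these levels and a scaling factor of 0.84 against 1.02 to 1.05 in the others. Tissue and sorted cells came in separate tables, so the kind of sample and the batch cannot be told apart.

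Of the 28 members, 21 lay on chromosome 6 (GRCm38), most of them in a pair of gene clusters. The first cluster (chr6:122921848-123289870, 368 kb) held 9 members with the DCIR and Dectin-2 type receptors, from Clec4a1 to Clec4e. The second (chr6:128662385-129452000, 790 kb) held 10, from Clec2h to Clec1a, and included the Clr genes Clec2d to Clec2i and the Dectin-1 type receptors. Clec2l and Clec5a were elsewhere on chromosome 6, and the other 7 members were on chromosomes 7, 8, 9, 11, 12 and 16. Neighbouring members share sequence, which bears on how their reads can be counted. Of the 50-base stretches of each transcript, 15.7% of those of Clec4a4 were also found in Clec4a2, 9.73% of those of Clec4b1 were also in Clec4a2 and 10.6% of those of Clec10a were also in Mgl2, a related lectin outside the rule. Clec1b and Clec9a share exonic bases on 1 strand, and 4.19% of the stretches of Clec9a were in Clec1b. The levels of these genes are therefore less certain than those of Clec4d, Clec4e, Clec5a and Clec14a, for which no such stretch was found in another gene.

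The stretches just before 4 transcription start sites are shown as examples. Clec4d and Clec4e are neighbours that were high in the same libraries, Clec5a had one of the largest rises, and Clec1b fell in Ht. Each line gives the 250 bases before the RefSeq start site (GRCm38.p6), 5′ to 3′ on the strand of the gene. Capitals mark the letters GAGGAA on either strand, the core bound by ETS factors of the PU.1 type, which are central to myeloid cells, and the letters TTGCNNAA on either strand, a C/EBP-type match.
Clec4e (chr6:123289872-123290121, minus strand): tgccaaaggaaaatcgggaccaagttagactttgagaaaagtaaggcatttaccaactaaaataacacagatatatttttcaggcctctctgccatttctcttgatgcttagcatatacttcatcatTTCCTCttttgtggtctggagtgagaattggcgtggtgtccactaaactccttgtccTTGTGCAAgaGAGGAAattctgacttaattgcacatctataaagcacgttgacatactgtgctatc
Clec4d (chr6:123261857-123262106, plus strand): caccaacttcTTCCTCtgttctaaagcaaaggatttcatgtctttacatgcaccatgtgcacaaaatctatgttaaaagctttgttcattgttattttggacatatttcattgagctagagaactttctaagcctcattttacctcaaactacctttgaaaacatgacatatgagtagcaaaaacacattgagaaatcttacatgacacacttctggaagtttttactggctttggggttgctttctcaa
Clec5a (chr6:40585806-40586055, minus strand): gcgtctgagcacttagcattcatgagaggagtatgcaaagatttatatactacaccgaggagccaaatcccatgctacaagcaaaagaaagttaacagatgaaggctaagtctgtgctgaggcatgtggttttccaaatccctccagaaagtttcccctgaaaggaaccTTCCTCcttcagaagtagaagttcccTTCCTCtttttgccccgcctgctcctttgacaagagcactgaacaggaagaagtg
Clec1b (chr6:129397047-129397296, plus strand): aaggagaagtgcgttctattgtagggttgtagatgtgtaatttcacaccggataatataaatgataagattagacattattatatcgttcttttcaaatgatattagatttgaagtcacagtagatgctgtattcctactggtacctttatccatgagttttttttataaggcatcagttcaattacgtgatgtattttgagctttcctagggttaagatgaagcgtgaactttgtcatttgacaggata
GAGGAA occurred in the windows of 12 of the 22 members with a RefSeq window, against 23.3% of 32851 windows of the same annotation. It did not follow the myeloid members. The windows of Clec11a, Clec14a, Clec16a, Clec18a and Clec2l held it, and those of Clec4a2 and Clec4a3 did not. The windows of Clec4e and Clec5a each held it at 2 places, at -123 and -56 and at -81 and -55 from the start site, and the window of Clec4d held it once, at -240. TTGCNNAA was found in 4 of the 22, including Clec4e at -66, next to but not overlapping its second GAGGAA, against 9.56% of all windows. The GATA-type letters AGATAA were in none of the 22 member windows, against 9.99% of all. The window of Clec1b held none of the 3. A match of letters is a description of the window and no evidence of binding.

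Levels were compared between genes per length, as FPKM, which divides a CPM value by the length of the gene in kilobases, on 1 scale for both tables. In con livers Clec2d, which encodes Clr-b, a ligand of an inhibitory NK receptor, led with 61.8 ± 39 FPKM (SD, n = 2), followed by the endothelial Clec14a at 10.8 ± 2.1 and Clec2h (Clr-f) at 6.12 ± 1.2. The myeloid members were low there, with Clec4a3 the first of them at 3.13 ± 0.75. In Ht the order had turned: Clec4a1 stood at 25.9 ± 6.7, Clec2d at 21.6 ± 10 and Clec4a3 at 20.5 ± 3.1, and the ranges of these 3 overlapped, while Clec14a was at 1.33 ± 0.16. The sorted cells had the same first 4 members in both populations. In F4/80+TAM these were Clec4a1 at 171 ± 3.8 FPKM, Clec4a3 at 141 ± 3.7, Clec4a2 at 73.2 ± 2.5 and Clec4n at 59 ± 5.5 (SD, n = 3), with no overlap between neighbours. In CD11b+TAM the libraries spread more, at 175 ± 48, 154 ± 56, 89.5 ± 35 and 59.3 ± 8.2, and every neighbouring pair overlapped. All members together took 0.0140% to 0.0165% of the counts in con, 0.0356% to 0.0474% in the 3 Ht libraries and 0.124% to 0.204% in the sorted cells.

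**Figure D1:**
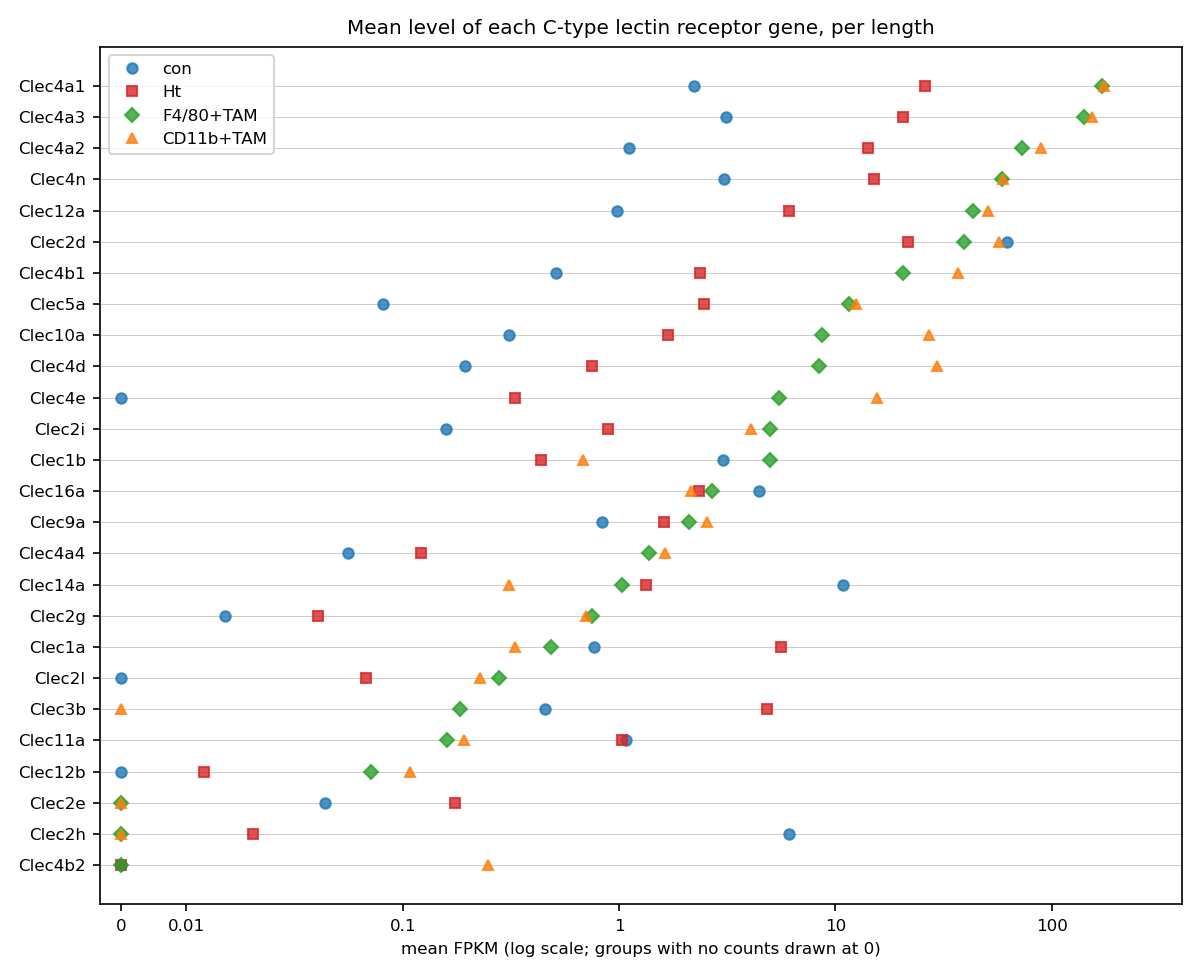
Mean level per length (FPKM, log axis, groups with no counts drawn at 0) of the 26 members detected in con (2 samples), Ht (2), F4/80+TAM (3) or CD11b+TAM (3). Most myeloid members rise from con to Ht to the sorted cells, whereas Clec14a, Clec2h and Clec1b are lower in Ht than in con, and Clec1a and Clec3b are higher in Ht than in the sorted cells.

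Comparison of low-content tumors with con asked which members changed at the first stage sampled. Of the 22 members tested, 8 were called, all higher in Lt, which is 36.4% against 12.7% of all genes (12.4% higher), where a call needs an adjusted p of at most 0.05 and a log2 fold change of at least 1 in size. The median log2 fold change was 1.60 over the members and 0.10 over all genes. The 8 were Clec4a1, Clec4a2, Clec4a3, Clec4n, Clec12a, Clec5a, Clec10a and Clec1a, and all but Clec1a are best known as receptors of myeloid cells. The monocyte and macrophage markers moved with them, from a summed 502 to 761 CPM in con to 1355 to 2182 in Lt. Of these, 9 of 13 were called higher, with a median log2 fold change of 1.61. Dendritic cell markers (5 of 9 called higher, median 1.87) and neutrophil markers (5 of 9 tested, median 2.77) rose as well. The part of these lists was not tested. In such bulk samples a change in the number of cells of a type and a change in RNA per cell cannot be told apart. Only 2 samples stood on each side, and the count depended on single libraries, with 5 members called without con 1, 1 (Clec10a) without con 2 and 4 without Lt 2.

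By high content, 16 of 22 members were called against con, 12 higher and 4 lower, beside 49.9% of all genes (25.8% higher and 24.1% lower). Under total-count scaling the members called were 15 higher and 3 lower, beside 8822 higher and 2249 lower of 17187 genes. The median was 2.23 against 0.09 for all genes. Of the monocyte and macrophage markers, 11 of 13 were called higher, with a median log2 fold change of 2.52 and a summed 3164 to 3249 CPM in Ht. Of the dendritic cell markers 5 of 9 were called higher (median 1.38), and of the neutrophil markers 3 of 9 tested (median 2.18). The part of these lists in the members' rise was not tested. This comparison shares its con samples with that of Lt, so the 2 counts are not independent. All 3 DCIR genes tested rose. Clec4a2 (DCIR1, chr6:123106428-123143999) carries an inhibitory motif in its tail, and it stood at 3.45 and 2.81 CPM for con, 8.02 and 21.3 for Lt, 9.64 and 19 for Mt3, 17.5 and 29 for Mt2, 24.4 and 25.6 for Mt1 and 36 and 43.1 for Ht. All Ht values lay above all others, the log2 fold change was 2.23 ± 0.51 (SE, adjusted p = 0.0189) in Lt and 3.66 ± 0.52 (SE, adjusted p = 0.000402) in Ht, both by edgeR's quasi-likelihood test against con. Clec4a1 (DCIR4) stood at 5.05 and 1.65 CPM for con, 12.2 and 15.3 for Lt, 11.6 and 22.6 for Mt3, 20.8 and 36.6 for Mt2, 25 and 29.7 for Mt1 and 31.3 and 45.3 for Ht. Its log2 fold change against con was 2.04 ± 0.52 (SE, adjusted p = 0.03) in Lt and 3.52 ± 0.53 (SE, adjusted p = 0.00051) in Ht, and no tumor sample overlapped con, while Mt2 2 lay between the Ht samples. Clec4a3 (DCIR3) stood at 4.69 and 3.31 CPM for con, 10.2 and 15.4 for Lt, 12 and 20.2 for Mt3, 15.5 and 27.4 for Mt2, 18.9 and 19.4 for Mt1 and 23.1 and 28.6 for Ht, with log2 fold changes of 1.68 in Lt and 2.69 in Ht. Again no tumor sample overlapped con, although Mt2 2 lay between the Ht samples. The fourth member of the group, Clec4a4 (DCIR2), had at most 6 counts in any tissue library and was not tested there.

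Clec4n encodes Dectin-2, a receptor for fungal mannans that signals through FcRγ. It stood at 5.84 and 2.56 CPM for con, 11.2 and 14.7 for Lt, 9.43 and 18 for Mt3, 13 and 16.9 for Mt2, 14.9 and 24.7 for Mt1 and 19.99 and 20.8 for Ht. The tumor samples all lay above con, and the log2 fold change was 1.63 ± 0.44 (SE, adjusted p = 0.0396) in Lt and 2.28 ± 0.44 (SE, adjusted p = 0.00178) in Ht. The neighbouring Clec4d (MCL) and Clec4e (Mincle, a receptor for mycobacterial and damaged-cell lipids) were far lower in tissue. Clec4e had no counts in either con sample and stood at 0.287 and 1.68 CPM for Lt, 1.47 and 1.38 for Mt3, 0.807 and 2.46 for Mt2, 1.45 and 6.79 for Mt1 and 1.68 and 1.43 for Ht. Against a floor of 3 counts per con library, Clec4e was at least 5.87-fold higher in Ht (adjusted p = 0.012), a call lost without con 2. Clec4d stood at 0.354 and 0.248 CPM for con, 0.645 and 0.841 for Lt, 0.468 and 1.07 for Mt3, 0.559 and 2.74 for Mt2, 1.27 and 8.62 for Mt1 and 1.19 and 1.08 for Ht, and its log2 fold change of 1.90 ± 1.11 (SE, adjusted p = 0.159) from con to Ht missed the threshold. Both genes were highest in Mt1 2 and next highest in Mt2 2. The summed neutrophil markers stood at 3.47 to 5.05 CPM in con, 106 to 156 in Mt2, 154 to 274 in Mt1 and 174 to 191 in Ht. This sum was highest in Mt1 2 but higher in Ht than in Mt2. Most of it was Mmp9, at 116 and 221 CPM for Mt1, 159 and 170.3 for Ht and 90.7 and 134 for Mt2. No other gene of the list was higher in both Ht samples than in both Mt2 samples, and S100a8, S100a9 and Retnlg were lower. S100a8 had 1.77 and 2.44 CPM for Ht, below the 2.79 and 2.58 of Mt2. Its highest values, 9.09 and 11.2, were those of Mt1, and S100a9 was also highest there. The part of the neutrophil markers in the pattern of Clec4d and Clec4e was not tested. Clec4b1 (DCAR1), an FcRγ-coupled receptor of the same cluster, was below 2.1 CPM in every tissue library and rose from con to Ht by 2.17 ± 0.64 (SE, adjusted p = 0.0148) on the log2 scale, a call lost without con 1, con 2 or Ht 2. Clec4b2 had no counts in tissue.

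Other myeloid receptors rose from con as well. Clec5a (MDL-1, which signals through DAP12) had 3 and 4 counts in con. It stood at 0.266 and 0.331 CPM for con, 2.51 and 5.69 for Lt, 4.15 and 5.20 for Mt3, 4.35 and 11.4 for Mt2, 4.28 and 9.78 for Mt1 and 8.33 and 9.78 for Ht. Every tumor sample was above con, and the log2 fold change was 3.75 ± 0.77 (SE, adjusted p = 0.0117) in Lt and 4.89 ± 0.75 (SE, adjusted p = 0.000555) in Ht. Clec12a (MICL), an inhibitory receptor for urate crystals, stood at 5.75 and 4.71 CPM for con, 15.8 and 29.3 for Lt, 18.9 and 29.9 for Mt3, 21.4 and 32.6 for Mt2, 29.2 and 28 for Mt1 and 28.4 and 35.7 for Ht. No tumor sample overlapped con, with log2 fold changes of 2.11 ± 0.36 (SE, adjusted p = 0.00575) in Lt and 2.61 ± 0.36 (SE, adjusted p = 0.000378) in Ht. Clec10a (MGL1) binds terminal galactose and N-acetylgalactosamine. It stood at 1.15 and 0.579 CPM for con, 4.44 and 5.76 for Lt, 4.75 and 6.14 for Mt3, 3.42 and 5.08 for Mt2, 4.28 and 4.33 for Mt1 and 4.81 and 4.49 for Ht. Unlike the DCIR genes it was no higher in Ht than in Lt, with log2 fold changes of 2.56 ± 0.39 (SE, adjusted p = 0.00337) and 2.43 ± 0.39 (SE, adjusted p = 0.000634) against con and 0.00 ± 0.26 (SE) from Mt to Ht. Clec9a (DNGR-1), the receptor for exposed actin filaments on cross-presenting dendritic cells, stood at 2.83 and 2.48 CPM for con, 4.30 and 5.89 for Lt, 3.48 and 7.20 for Mt3, 4.29 and 6.54 for Mt2, 5.04 and 5.62 for Mt1 and 4.77 and 5.36 for Ht. Its tumor samples lay above con, but the log2 fold change of 0.93 ± 0.38 (SE, adjusted p = 0.0577) in Ht was not called, while it was called under total-count scaling (2.11), without a filter (1.05) and with at least 10 counts in every library (1.06). Clec7a, outside the rule and named after its values were seen, stood at 10.8 and 4.71 CPM in con, 13.7 and 32.1 in Lt and 13.1 and 19.7 in Ht and was called in neither comparison.

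**Figure D2:**
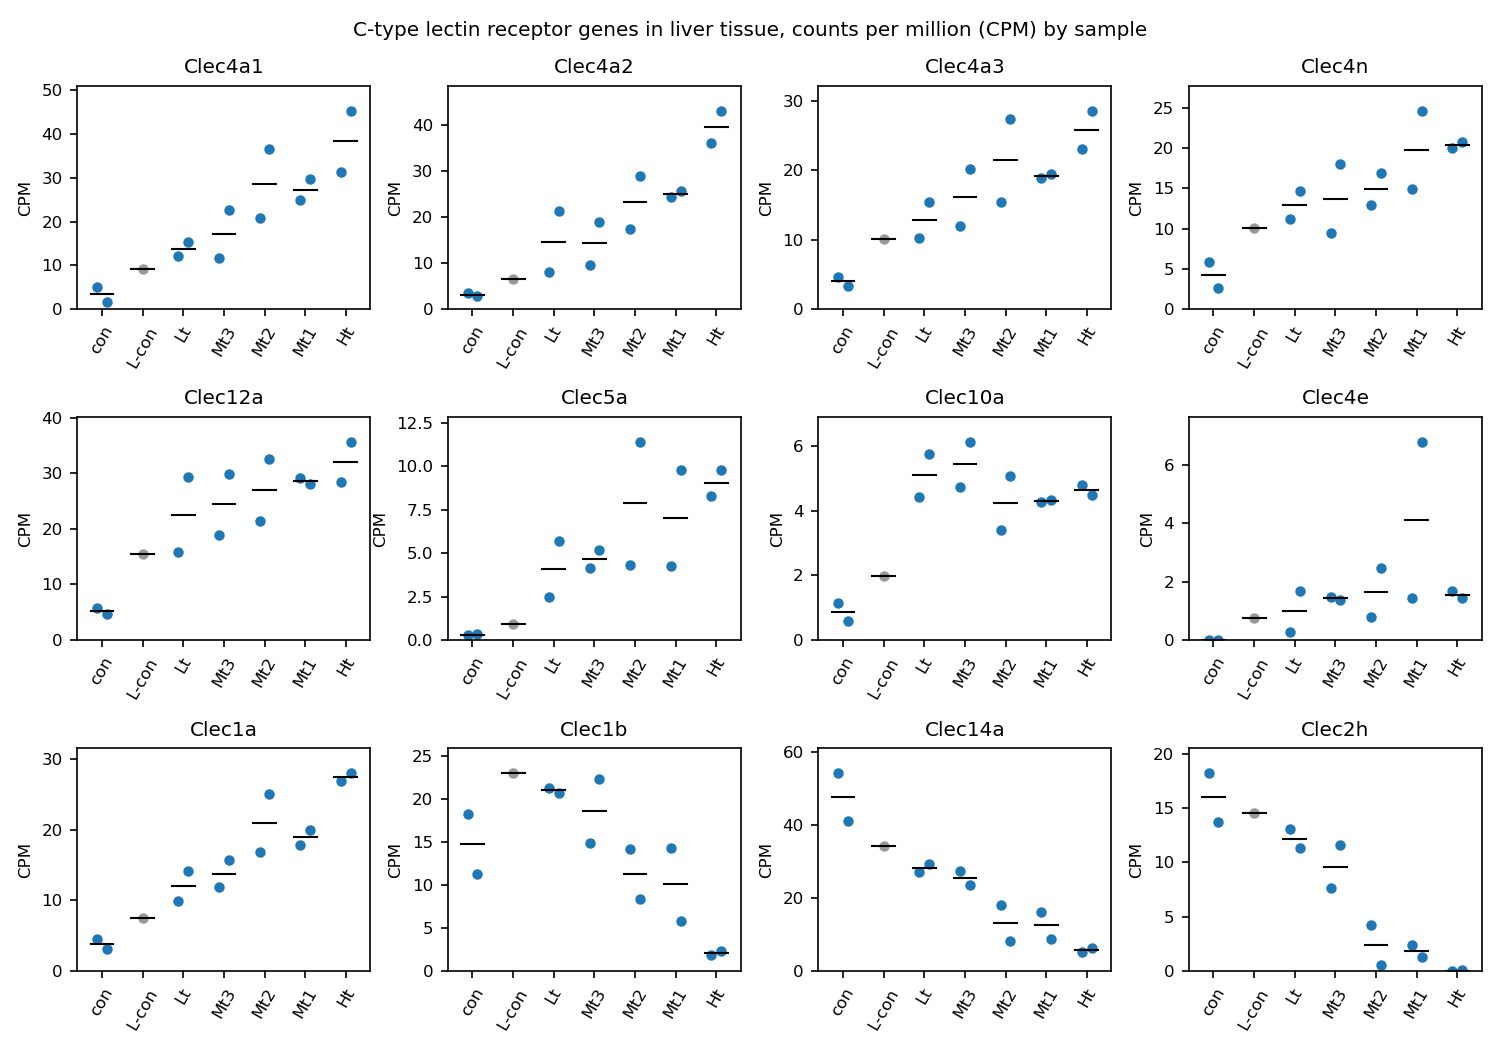
CPM of 12 members in each tissue sample by group (points; black bars are group means; the grey point is the single L-con library; Ht 1 and Ht 3 are summed to 1 point). The DCIR genes, Clec4n, Clec12a, Clec5a and Clec1a lie above con in all tumor samples, and Clec14a, Clec1b and Clec2h are lowest in Ht.

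Clec1a also rose in both comparisons. It encodes MelLec, a receptor for fungal melanin found on endothelial cells and some myeloid cells. It stood at 4.51 and 3.14 CPM for con, 9.96 and 14.2 for Lt, 11.8 and 15.7 for Mt3, 16.8 and 25.1 for Mt2, 17.9 and 19.98 for Mt1 and 26.9 and 28.1 for Ht. Its samples rose from con to Lt to Ht without overlap, by 1.66 ± 0.29 (SE, adjusted p = 0.00631) in Lt and 2.85 ± 0.30 (SE, adjusted p = 0.000129) in Ht on the log2 scale. The endothelial markers did not rise with it, since none of 13 was called higher in Ht and 6 were called lower, and their summed level was 541 to 679 CPM in con and 237 to 252 in Ht. Fibroblast and stellate cell markers went with it, with 6 of 10 called higher and 2 lower from con to Ht. Their summed level was 381 to 497 CPM in con and 6103 to 6909 in Ht, where most of it was Col3a1, at 4963 and 4326 CPM. The stellate cell gene Reln fell, from 94.4 and 91.9 CPM in con to 8.74 and 10.1 in Ht. The part of these markers was not tested, and no list of tumor cell genes was set beside Clec1a. Clec14a, an endothelial surface protein that binds Multimerin-2, went the opposite way. It stood at 54.3 and 41 CPM for con, 27.2 and 29.3 for Lt, 27.3 and 23.6 for Mt3, 18.2 and 8.23 for Mt2, 16.3 and 8.83 for Mt1 and 5.29 and 6.30 for Ht. All con samples were above all others and both Ht samples below all others, with a log2 fold change of -3.04 ± 0.40 (SE, adjusted p = 0.000292) from con to Ht and -1.48 ± 0.33 (SE, adjusted p = 0.0175) from Mt to Ht, the latter at -0.87 and not called under total-count scaling. Mmrn2, the gene of that ligand, also fell from con to Ht, by 1.21 on the log2 scale (adjusted p = 0.00107).

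Clec1b encodes CLEC-2, the podoplanin receptor of platelets, which in the liver is also found on resident macrophages (Kupffer cells). It stood at 18.3 and 11.3 CPM for con, 21.3 and 20.8 for Lt, 14.9 and 22.3 for Mt3, 14.2 and 8.35 for Mt2, 14.4 and 5.83 for Mt1 and 1.92 and 2.30 for Ht. The con and medium-content samples overlapped, and both Ht samples were below all others. The log2 fold change was 0.51 ± 0.43 (SE, adjusted p = 0.456) in Lt, not called, -2.82 ± 0.47 (SE, adjusted p = 0.0008) in Ht against con and -2.61 ± 0.42 (SE, adjusted p = 0.00861) from Mt to Ht. Kupffer cell markers moved with it, with 6 of 7 called lower from Mt to Ht and a summed level of 374 to 485 CPM in con and 82.8 to 120 in Ht. Of the platelet markers, 4 of 8 could be tested and 1 was called lower from Mt to Ht, at a summed level of 14.5 to 27.5 CPM in con and 21.3 to 21.6 in Ht. Pdpn, the gene of podoplanin, had 0 and 0.331 CPM in con, 5.66 and 9.70 in Lt and 22.5 and 18 in Ht. It rose from con to both (adjusted p = 0.00343 and 0.000202), so that the ligand gene and the receptor gene changed in opposite directions from con to Ht.

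The Clr genes, whose products are ligands of NK receptors of the NKR-P1 family, had no common direction. Clec2h (Clr-f) stood at 18.2 and 13.7 CPM for con, 13 and 11.3 for Lt, 7.63 and 11.6 for Mt3, 4.22 and 0.565 for Mt2, 2.37 and 1.29 for Mt1 and 0 and 0.104 for Ht. With 0 and 3 counts in the Ht samples against 372 in the con samples together, it was lower in Ht by a ratio of 436 (95% counting interval 148 to 2120) against con and of 110 (37.4 to 535) against Mt, with adjusted p = 0.000343 and 0.00912. Hepatocyte markers fell alongside, 10 of the 10 tested in both comparisons, and their part was not tested. Clec2i (Clr-g) was low in tissue and stood at 0.620 and 0.331 CPM for con, 0.931 and 2.98 for Lt, 1.34 and 2.19 for Mt3, 1.12 and 2.46 for Mt2, 1.10 and 2.17 for Mt1 and 2.38 and 2.85 for Ht. It rose from con to Ht by 2.45 ± 0.72 (SE, adjusted p = 0.0147), a call lost without con 2. Clec2d (Clr-b) stood at 40.5 and 104 CPM for con, 139 and 119 for Lt, 33.9 and 103 for Mt3, 35.1 and 43 for Mt2, 25.4 and 18.7 for Mt1 and 33.3 and 16.6 for Ht. Its con samples lay far apart, and con 1 was close to Ht 1+3. The libraries summed as Ht 1+3 were themselves unlike, with 1253 counts in Ht 1 and 535 in Ht 3. The log2 fold change from con to Ht was -1.53 ± 0.57 (SE, adjusted p = 0.0407), but it was -0.35 under total-count scaling, and the call was also lost without con 2 or Ht 2, with the replicate block (-1.43) and with at least 10 counts required in every library (-1.40). The gene of its receptor, Klrb1b, was under 3 counts in each con library, and rose to 0.788 and 1.75 CPM in Lt (adjusted p = 0.0142) and 1.29 and 1.57 in Ht (adjusted p = 0.00196). In the sorted libraries Klrb1b stood at 9.66 to 17.1 CPM in F4/80+TAM and 12.8 to 42.9 in CD11b+TAM. The NK cell genes Ncr1 and Klrb1c reached at most 0.741 and 3.02 CPM there. The source of the rise in tissue was not tested. Clec2e and Clec2g were below 0.6 CPM in all tissue libraries, and neither was called, and Clec2l was below 0.2 and not tested.

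Among secreted and intracellular members, Clec3b encodes tetranectin, a plasminogen-binding protein. Its level was 0.620 and 0.248 CPM for con, 7.31 and 0.453 for Lt, 0.803 and 1.07 for Mt3, 1.43 and 2.06 for Mt2, 0.810 and 1.33 for Mt1 and 5.22 and 3.93 for Ht. It rose from con to Ht by 3.40 ± 1.08 (SE, adjusted p = 0.0202), but leaving out con 1, con 2 or Ht 1+3 ended the call, and Lt 1 stood apart from Lt 2, so that the change from Lt to Mt turned from -1.67 to 1.43 without Lt 1. Clec11a (a secreted growth factor for bone) was between 2.5 and 5.8 CPM in every tissue library and was not called. Clec16a, an endosomal protein without a typical lectin domain, stood at 33.7 and 37.5 CPM for con, 27.9 and 28.1 for Lt, 32.5 and 26.4 for Mt3, 28.6 and 23.4 for Mt2, 23.3 and 21.1 for Mt1 and 18.7 and 18.7 for Ht. Its log2 fold change from con to Ht was -0.93 ± 0.16 (SE, adjusted p = 0.000898), below the size needed for a call, and turned to 0.26 under total-count scaling, as did that from Mt to Ht, from -0.46 to 0.10. Clec18a had at most 2 counts, Clec12b at most 1 count and Clec3a no counts in any tissue library.

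From one stage of tumor growth to the next, fewer members were called. From Lt to Mt, the mean of Mt3, Mt2 and Mt1, none of 22 members was called by edgeR, beside 0% of all genes. An unadjusted p under 0.05 was found for 5, a count that was not made over all genes. DESeq2 called 1 member among 235 genes, and without Mt2 1 there were 2 members among 778 genes called. The 5 members were Clec2d at -1.73, Clec2h at -1.83, Clec14a at -0.81, Clec3b at -1.67 and Clec1a at 0.54 on the log2 scale. From Mt to Ht, 3 of 22 were called, all lower, which is 13.6% beside 14.9% of all genes (13.4% lower and 1.5% higher). They were Clec14a, Clec1b and Clec2h, and none was called without Ht 1+3 or without Ht 2, when no gene of the table was called either. With total-count scaling 6 members were called from Mt to Ht, 4 higher and 2 lower, beside 4360 of 17187 genes, 2587 higher and 1773 lower, where the median of all genes was 0.55. The DCIR genes, Clec4n, Clec12a and Clec5a were not called in either step. Clec4a2 came nearest, with 0.96 ± 0.34 (SE, adjusted p = 0.0698) from Mt to Ht and no overlap between the groups, and it was called by DESeq2 (1.03, adjusted p = 0.0333).

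Comparison of the sorted populations asked whether F4/80+ and CD11b+ macrophages from the same kind of tumor differ in these receptors. None of 20 members tested was called by edgeR, beside 0.0771% of all genes, which is 11 of 14263 (0.00701% higher in F4/80+TAM and 0.0701% lower). At an unadjusted p under 0.05 there were 5, a count not made over all genes, and DESeq2 called 5 members among 302 genes. In each of the 5 picked by unadjusted p the libraries of the populations did not overlap. Overlap was not counted over all genes, and in members picked by a low p its absence is no separate support. Clec4e stood at 30.9, 27.7 and 30 CPM in F4/80+TAM and 63.9, 108 and 89.5 in CD11b+TAM, with a log2 fold change (F4/80+TAM over CD11b+TAM) of -1.56 ± 0.20 (SE, adjusted p = 0.0529). Clec4d, its neighbour on the chromosome, stood at 10.7, 14.2 and 18.6 CPM in F4/80+TAM and 36.5, 57.3 and 65.2 in CD11b+TAM, with -1.87 ± 0.28 (SE, adjusted p = 0.0598). Both receptors lay higher in every CD11b+TAM library than in any F4/80+TAM library. Their difference was called when CD11b+TAM 3 was left out, with 3 members among 136 genes called (adjusted p = 0.023 for Clec4e and 0.0332 for Clec4d). The log2 fold changes were then -1.54 and -1.69. The replicate block also called both (adjusted p = 0.0414 and 0.00954). Without F4/80+TAM 1 neither was called, at -1.59 and -1.69 (adjusted p = 0.171 and 0.209), and no gene of the table was called either. The neutrophil markers also differed in this direction, in 10 of 10 genes and with a median of -3.32, although none was called. S100a8 stood at 2.64, 13 and 86.2 CPM in F4/80+TAM and 275, 177 and 1484 in CD11b+TAM. Across F4/80+TAM 1, 2 and 3, Clec4e was nearly level and Clec4d was ordered as S100a8 was. Across the CD11b+TAM libraries neither gene was ordered as S100a8 was, and S100a8 was lowest in CD11b+TAM 2, where Clec4e was highest. The part of neutrophil RNA in the difference was not tested.

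Clec10a stood at 30.5, 30.4 and 20.9 CPM in F4/80+TAM and 68.7, 41.9 and 154 in CD11b+TAM. Its log2 fold change was -1.69 ± 0.45 (SE, adjusted p = 0.251), and -1.02 (adjusted p = 0.0977) without CD11b+TAM 3, the highest library. Mgl2, with which it shares sequence, stood at 25.5, 35 and 23.2 CPM in F4/80+TAM and 63.6, 56.5 and 101 in CD11b+TAM, and the dendritic cell gene Cd209a at 0.275, 1.43 and 1.23 CPM in F4/80+TAM and 29.8, 19.3 and 81.2 in CD11b+TAM. Of the 9 dendritic cell markers, 7 were lower in F4/80+TAM and 2 higher, with a median of -1.60 and 1 called, and their part was not tested. Clec1b went the opposite way, at 46.7, 21.6 and 14.4 CPM in F4/80+TAM and 3.65, 3.78 and 4.28 in CD11b+TAM. Its log2 fold change was 2.82 ± 0.43 (SE, adjusted p = 0.0615), and it was called without CD11b+TAM 3 (2.89, adjusted p = 0.0462) but was at 2.21 (adjusted p = 0.125) without F4/80+TAM 1, where it was highest. The Kupffer cell marker Vsig4 stood at 295, 129 and 80.4 CPM in F4/80+TAM and 12.4, 19.4 and 7.30 in CD11b+TAM. Timd4 stood at 67.9, 27.2 and 20.8 CPM in F4/80+TAM and 4.76, 5.48 and 3.88 in CD11b+TAM. Both had the library order of Clec1b within F4/80+TAM but not within CD11b+TAM. All 7 Kupffer cell markers were higher in F4/80+TAM, with a summed level of 587 to 2058 CPM against 129 to 187. None was called, and their part was not tested. The platelet markers had a summed level of 5.55 to 9.39 CPM in F4/80+TAM and 6.65 to 13.5 in CD11b+TAM, with 2 and 3 of 8 genes at the floor. Clec14a stood at 4.94, 6.94 and 3.36 CPM in F4/80+TAM and 0.741, 1.65 and 2.37 in CD11b+TAM, with a log2 fold change of 1.69 ± 0.46 (SE, adjusted p = 0.278). The endothelial markers lay the same way in 11 of the 11 genes tested, at a summed 131 to 247 CPM against 65.4 to 74.1, and their part was not tested.

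**Figure D3:**
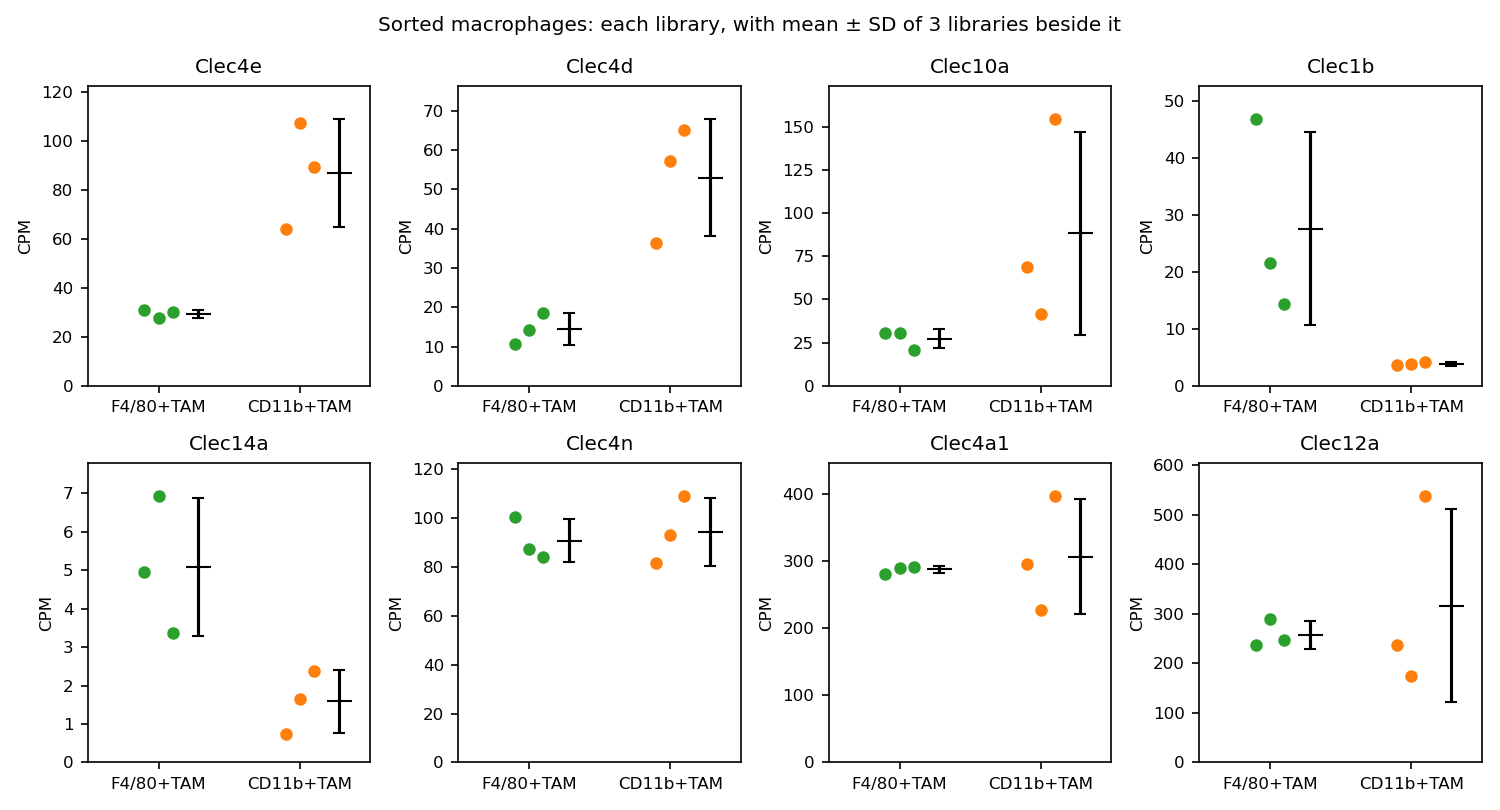
CPM of 8 members in each sorted-cell library (points) with the mean ± SD of 3 libraries to the right. Clec4e, Clec4d and Clec10a are higher in every CD11b+TAM library, Clec1b and Clec14a are higher in every F4/80+TAM library, and Clec4n, Clec4a1 and Clec12a overlap.

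The other members overlapped between the populations or were not tested. Clec4a1 stood at 282, 290.4 and 292 CPM in F4/80+TAM and 297, 227 and 398 in CD11b+TAM, with a log2 fold change of -0.09 ± 0.22 (SE). Clec4a2 stood at 236, 222 and 238 CPM in F4/80+TAM and 258, 199.6 and 426 in CD11b+TAM and Clec4a3 at 208, 201 and 197 CPM in F4/80+TAM and 209, 156 and 324 in CD11b+TAM. For these 3 DCIR genes CD11b+TAM 3 was the highest library and CD11b+TAM 2 the lowest. Clec4n stood at 101, 87.4 and 84.2 CPM in F4/80+TAM and 81.5, 93 and 109 in CD11b+TAM, Clec12a at 237, 289.9 and 248 CPM in F4/80+TAM and 237, 174 and 538 in CD11b+TAM and Clec5a at 33.7, 56.6 and 53.2 CPM in F4/80+TAM and 43.5, 51 and 66.9 in CD11b+TAM. These receptors for fungal mannan, urate crystals and viral proteins had log2 fold changes of -0.06 ± 0.16, -0.29 ± 0.39 and -0.17 ± 0.24 (SE). Clec4b1 stood at 19.6, 18.3 and 14.6 CPM in F4/80+TAM and 24.2, 13.5 and 60.2 in CD11b+TAM, and Clec9a at 4.07, 11.9 and 6.57 CPM in F4/80+TAM and 7.46, 3.73 and 17.2 in CD11b+TAM. Both were highest in CD11b+TAM 3. Clec2d stood at 48.8, 53.5 and 51.9 CPM in F4/80+TAM and 55.6, 37.2 and 140.2 in CD11b+TAM and Clec2i at 14.2, 20.4 and 15.9 CPM in F4/80+TAM and 14, 12.3 and 16.3 in CD11b+TAM. Clec2h was not detected in any sorted library. Clec16a stood at 24.9, 22.1 and 26.4 CPM in F4/80+TAM and 21.2, 23.8 and 15.8 in CD11b+TAM, and Clec1a at 1.81, 3.81 and 2.51 CPM in F4/80+TAM and 2.80, 1.28 and 1.65 in CD11b+TAM. Clec4a4, Clec2g and Clec11a, tested and not called, lay between 0.48 and 1.91, 1.43 and 2.91, and 0.189 and 1.01 CPM. Clec12b, Clec2l, Clec3b and Clec4b2 were below 0.81 CPM and were not tested, and Clec18a, Clec2e and Clec3a had no counts. Clec7a, outside the rule, stood at 185, 197 and 135 CPM in F4/80+TAM and 139, 153 and 218 in CD11b+TAM.

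Comparison of each sorted population with Mt2 tissue, in 1 fit of both tables, asked which members follow the macrophages of the tumor. Both comparisons share the Mt2 samples. In F4/80+TAM, 18 of 24 members were called, 13 higher and 5 lower, beside 42.3% of all genes (17.2% higher and 25.2% lower). In CD11b+TAM, 19 of 24 were called, 13 higher and 6 lower, beside 43.9% (17.6% higher and 26.3% lower). Over the members, log2 fold changes had a median of 2.41 and 2.47, and over all genes of -0.12 and -0.08. The 4 DCIR genes were higher in both populations, with log2 fold changes in F4/80+TAM and CD11b+TAM of 3.14 and 3.18 for Clec4a1, 3.13 and 3.42 for Clec4a2, and 3.05 and 3.18 for Clec4a3. Clec4a4 had 3 counts in the Mt2 samples and was higher by a ratio of 13.8 (95% counting interval 4.52 to 68.7) and 16 (5.27 to 79.2). Dectin-2 and its neighbours were higher too, with 2.42 and 2.42 for Clec4n, 2.88 and 4.70 for Clec4d, 3.93 and 5.44 for Clec4e, and 3.50 and 4.33 for Clec4b1. Of 10 neutrophil markers, 7 were called higher and 1 lower in F4/80+TAM, and 9 higher in CD11b+TAM, at medians of 3.69 and 6.87. Of 9 dendritic cell markers, 2 were called higher and 2 lower in F4/80+TAM, at a median of -0.73, and 6 higher and 2 lower in CD11b+TAM, at 1.73, and the part of either list was not tested. For Clec5a the values were 2.40 and 2.52, for Clec12a 3.07 and 3.31, and for Clec10a 2.49 and 4.12. Clec2i and Clec2g, both Clr genes, were also higher, Clec2i by 3.02 and 2.72 and Clec2g by 2.73 and 2.65, the latter calls being lost without Mt2 1.

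Clec1a and Clec3b rose from con to Ht and yet were lower in the sorted cells. Clec1a was called lower in both sorted populations, with log2 fold changes of -3.13 ± 0.34 (SE, adjusted p = 3.25e-06) in F4/80+TAM and -3.69 ± 0.35 (SE, adjusted p = 8.01e-07) in CD11b+TAM. Clec3b had no counts in CD11b+TAM, where it was at least 10.5-fold lower than in Mt2, and was called lower in F4/80+TAM, with a log2 fold change of -3.29. Clec11a was lower in both populations at -3.19 and -2.97, and Clec14a at -1.55 and -3.30. The call of Clec14a in F4/80+TAM was lost without Mt2 1. Clec2h, with no counts in sorted cells, was at least 16.6-fold lower in F4/80+TAM and at least 14.4-fold lower in CD11b+TAM. Fibroblast and stellate cell markers were lower in sorted cells in 10 of 10 genes, hepatocyte markers in 10 of 10, and endothelial markers were called lower in 11 of 13 in F4/80+TAM and 12 of 13 in CD11b+TAM. Clec1b was called lower in CD11b+TAM, with -1.76 ± 0.45 (SE, adjusted p = 0.00433), a call lost without Mt2 1, and was at 1.11 ± 0.46 (SE, adjusted p = 0.0524) in F4/80+TAM, where DESeq2 called it (1.10, adjusted p = 0.0383) and leaving out F4/80+TAM 1 gave 0.50 (adjusted p = 0.306). Clec9a, Clec2d, Clec16a, Clec2e and Clec2l were called in neither.

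**Figure D4:**
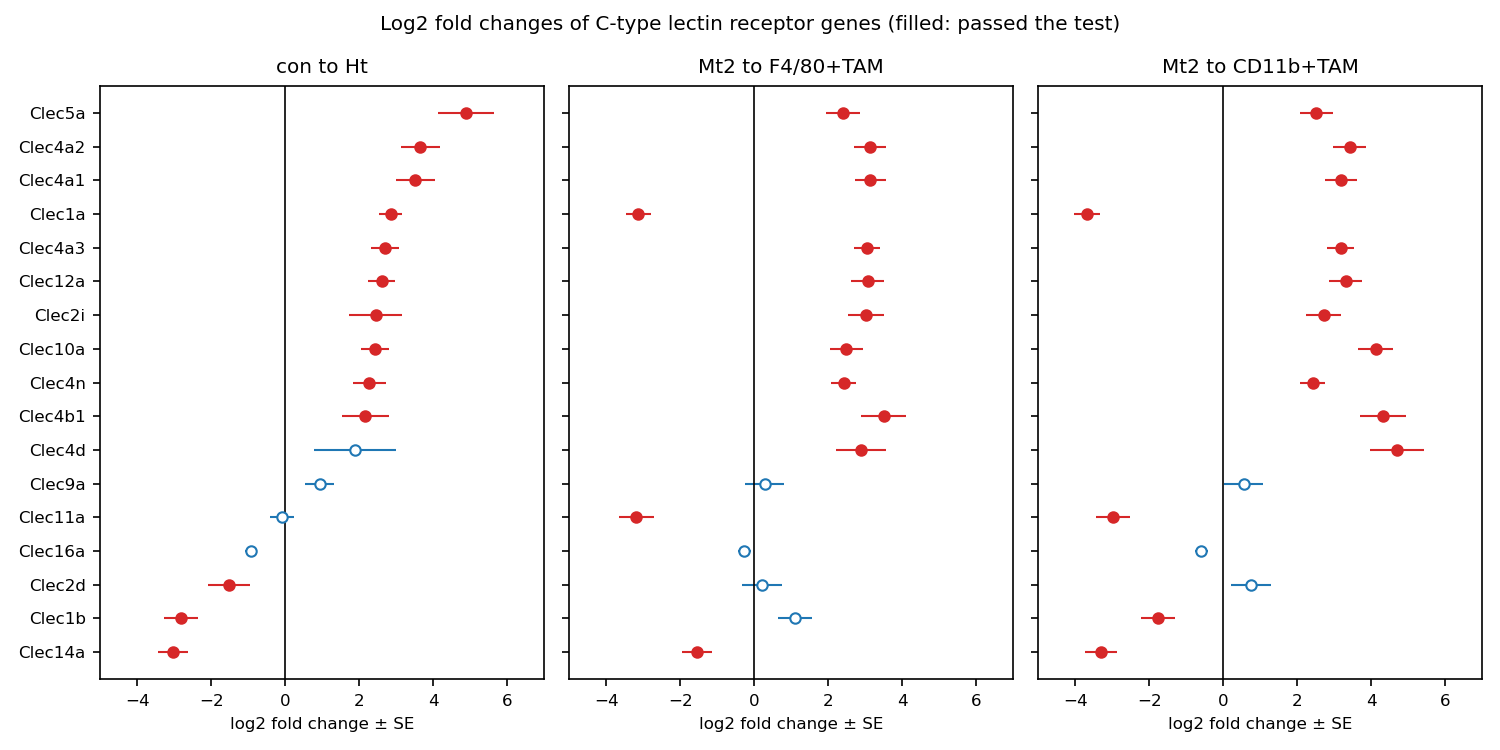
Log2 fold changes ± SE of 17 members from con to Ht (left), from Mt2 tissue to F4/80+TAM (middle) and from Mt2 tissue to CD11b+TAM (right), in the order of the left panel, with filled points for calls. The myeloid members lie to the right in all panels, and Clec1a lies to the right from con to Ht at 2.85 and to the left in both sorted populations at -3.13 and -3.69; Clec2e, Clec2g, Clec2h, Clec3b and Clec4e, which had few or no counts in a group, are not drawn.

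Genes that carry the signal of these receptors changed in the same comparisons. Of 14 adaptor and kinase genes, 9 were called higher from con to Lt, beside 12.4% of all genes, and 12 from con to Ht, beside 25.8%, and none was called from Lt to Mt, from Mt to Ht or between the sorted populations. Fcer1g, the gene of FcRγ, rose by 2.62 in Lt and 3.42 in Ht on the log2 scale, Tyrobp, the gene of DAP12, by 2.12 and 2.51, and Syk by 1.88 and 2.57. Card9, the adaptor downstream of SYK, rose by 2.97 in Ht. Of 3 phosphatase genes of the inhibitory receptors, Inpp5d (SHIP1) rose by 1.95 in Lt and 3.01 in Ht, Ptpn6 (SHP-1) by 1.40 in Ht, and the other one was not called. In sorted cells against Mt2, 12 of the 14 adaptor and kinase genes were called higher in F4/80+TAM, beside 17.2% of all genes, and 11 in CD11b+TAM, beside 17.6%, and Src, which many cell types use, was lower in both, at -1.56 and -1.87.

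Of 9 ligand and partner genes, 3 were called higher from con to Lt, where 12.4% of all genes were, and 5 higher and 3 lower from con to Ht, where 25.8% of all genes were called higher and 24.1% lower. Plg, the gene of plasminogen, which hepatocytes make, was among the latter at -5.32. Of 17 lectin-like genes outside the Clec names, 6 were called higher from con to Lt, and 8 higher and 6 lower from con to Ht, to be read against those same shares of all genes. The risers included Mgl2, a galactose-binding lectin close to Clec10a, at 0.266 and 0.0827 CPM in con and 6.78 and 4.59 in Ht, and Mrc2, the collagen-binding lectin of stromal cells, with a log2 fold change of 6.39. The hepatocyte receptors for desialylated glycoproteins fell, with log2 fold changes of -5.10 for Asgr1 and, for Asgr2, -5.50. Over these lists the median log2 fold change from con to Ht was 3 for the ligands and partners and 1.56 for the lectin-like genes, beside 0.09 for all genes.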

How the data were processed

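RNA-seq was run on liver and tumor tissue and on sorted cells. Per the labels, the submitters' processing notes name CASAVA, HISAT2 2.0.5, featureCounts 1.5.0-p3 and the build GRCm38 (mm10), without a role or an annotation release. The deposited values were raw counts per gene, in a table for tissue and another for sorted cells. The named library kit does not mark strand, so reads of overlapping genes cannot be told apart.

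Counts were analysed in R 4.3.3 with edgeR 4.0.16 (quasi-likelihood F test, filterByExpr, TMM scaling, Benjamini-Hochberg adjustment over all genes tested). A call needed an adjusted p of at most 0.05 and a log2 fold change of at least 1 in size, the study's threshold. The tissue fit held 13 samples and 17187 genes, the sorted-cell fit 6 libraries and 14263 genes, and the joint fit 19 samples and 18407 genes. Mt was the mean of Mt3, Mt2 and Mt1. Ht 1 and Ht 3 were summed, although their counts differed beyond sampling noise (chi-square per degree of freedom 30.3, against 29.1 for 1 and 2 and 13.2 for 2 and 3). FPKM were computed from the scaled counts and the listed gene lengths. Alternatives were DESeq2 1.42.0, total-count scaling, other filters, a replicate block and leaving out each sample. No value column was left unmapped (0 columns). Per the methods, 2 livers were used per tissue group except L-con. For the sorted cells no source used here says that libraries came from separate mice, so their p-values measure a spread that may be technical. Intervals and floors cover counting error only.

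Members and gene lists were chosen with earlier results of these data known. The named genes were all members, with values by sample for those with a group mean of at least 5 CPM, and genes of the fixed lists where called or given as markers. Same-numbered samples deviated together among Lt, Mt3, Mt2 and Mt1 (r from 0.15 to 0.56) but not between these and con or Ht or between con and Ht (-0.27 to -0.05) or in sorted cells (-0.12 to 0.01). In groups of 2 both numbers give 1 value of r, so numbers were not taken as pairs. Promoter windows are RefSeq sequence (GRCm38.p6), found for 22 of 28 members. The test script was tested on simulated data.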

Additional observations from a re-analysis of the deposited data

Results flagged for a closer look

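Of the 28 members, 4 stood above 2 times the highest con library in L-con, with more than 3 counts there. L-con is the single library of tumor-free liver from a tumor-bearing mouse. How many of all genes pass the same rule was not counted, so the 4 cannot be set against a background. L-con was not tested against con here. Clec12a, an inhibitory myeloid receptor, stood at 15.4 CPM (187 counts) in L-con against 5.75 and 4.71 in con. Clec4a3 (DCIR3) stood at 10.1 CPM (122 counts) against 4.69 and 3.31. Clec5a (MDL-1) stood at 0.906 CPM (11 counts) against 0.266 and 0.331, and Clec4e (Mincle) at 0.741 CPM (9 counts) against 0 in both. The summed monocyte and macrophage markers were at 1219 CPM in L-con against 502 to 761 in con. Kupffer cell markers were at 880 CPM against 374 to 485, and neutrophil markers at 15.2 against 3.47 to 5.05. The part of these lists in the members' values was not tested.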

How the results depend on the processing

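Leaving out 1 sample at a time, the members called ranged from 1 to 8 from con to Lt, 0 to 2 from Lt to Mt, 0 to 4 from Mt to Ht, 11 to 15 from con to Ht, 0 to 3 between the sorted populations, 16 to 20 from Mt2 to F4/80+TAM and 17 to 19 from Mt2 to CD11b+TAM. Of the refits of called members, 15 kept the call from con to Lt and 17 lost it, against 54 and 10 from con to Ht. Requiring at least 10 counts in every library left fewer members to test and gave 5 calls from con to Lt, 9 from con to Ht, 7 from Mt2 to F4/80+TAM and 8 from Mt2 to CD11b+TAM. All genes called in these fits numbered 1154, 5903, 3742 and 3870. Without a filter there were 3 calls from Lt to Mt, 5 from Mt to Ht and 4 between the sorted populations, among 887, 3120 and 242 genes called. DESeq2 gave 1, 5 and 5, among 235, 2936 and 302 genes, and the cause was not tested. Total-count scaling gave 6 from Mt to Ht among 4360 genes called, and the joint fit gave 2 between the sorted populations among 169. Directions were followed only for members called or with an unadjusted p under 0.05 in the main fit, and 2 of these members reversed. Clec3b did so from Lt to Mt without Lt 1 (1.43, in a range of -2.59 to 1.43 over the samples left out). Clec16a did so under total-count scaling (0.10 from Mt to Ht and 0.26 from con to Ht). Members outside that set may have reversed as well.

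With the replicate number as a block, 3 members (1 higher and 2 lower in F4/80+TAM) were called between the sorted populations, among 78 genes called. Same-numbered libraries did not deviate together there. In tissue the block gave 9 from con to Lt, 0 from Lt to Mt, 3 from Mt to Ht and 15 from con to Ht. All genes called in these fits numbered 2337, 0, 2835 and 8603. Exchanging the numbers, an alternative chosen after seeing the data, gave 10 members from con to Lt and 4 from Mt to Ht, among 2494 and 2919 genes called. At these depths members under 3 counts could not be told from 0.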
